A study of Mus musculus with 17 samples.

Results

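Klotho, vitamin D and calcium hormone genes were followed in mouse kidney as a set of 7: Kl, Fgfr1, Cyp27b1, Cyp24a1, Vdr, Pth1r and Casr. The 7 genes were chosen by name, out of 35971 genes with a matched transcript, and the transcripts of each gene were summed. They and all lists below were chosen with earlier results of these data known. Shares of all genes beside their counts are therefore a description and not a test. RNA of 17 kidney samples in 5 genotype groups had been sequenced. Every mouse carried lsl-PRCC-TFE3 KI, an allele at the Rosa26 locus that expresses the fusion protein PRCC-TFE3 of a kidney cancer once Cre has removed a stop cassette. Cre came from the KSP-Cre transgene, driven by the Cadherin 16 promoter, which is active in kidney epithelial cells, so other cells of the organ kept their alleles unrecombined. The Cre(−) group (n = 4) lacked the transgene, so its stop cassette stayed in place, and 2 of its samples, replicates 1 and 2, also carried HIF1af/f. The KI group (n = 3) had Cre and the fusion alone. The Hif1α KO group (n = 4) had in addition HIF1af/f, the Hif2α KO group (n = 3) HIF2af/f, and the DKO group (n = 3) both floxed genes. The study took its mice at 8 months of age, while the labels give neither age nor sex.

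The kidney is both a source and a target of the hormones that hold calcium and phosphate constant. Klotho, encoded by Kl and made mainly in the distal convoluted tubule, joins FGFR1 into the receptor for FGF23, a bone hormone that lowers phosphate reabsorption and calcitriol production. Calcitriol, the active form of vitamin D, is made in the proximal tubule by CYP27B1, is degraded by CYP24A1 and acts through the nuclear receptor VDR. Parathyroid hormone acts on the tubule through PTH1R and raises Cyp27b1 transcription, while the calcium-sensing receptor CASR of the thick ascending limb lowers calcium reabsorption when blood calcium is high.

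Library totals were 16504419 to 24668827 counts, and 3 counts, taken as the smallest detectable amount, corresponded to 0.117 to 0.206 CPM (counts scaled to the size of the library). The lowest count of any of the 7 genes in any library was 87, so all 7 were far above that floor in every kidney. Gene-level RNA of the floxed genes in knockout kidneys lay near that in KI kidneys, at 186 ± 15.9 CPM (SD, n = 4) for Hif1a in Hif1α KO against 215 ± 26.5 (n = 3), and at 144 ± 6.68 (n = 3) for Epas1 in Hif2α KO against 181 ± 9.46 (n = 3). Gene-level RNA does not show whether the floxed exons were removed, and unrecombined cells were in the sample. One library stood apart, KI replicate 2, with a summed level of 6 adipocyte markers of 3017 TPM (a level per transcript length, scaled within the library) against at most 427 in the other 16 kidneys. Transcripts of the Y-linked genes Ddx3y and Eif2s3y reached at most 0.202 and 0.101 CPM in any library. In bulk kidney RNA, fewer cells of a type and less RNA per cell cannot be told apart, and this holds for every difference below. The labels do not say that the samples of a group came from separate mice, so the p-values measure only the spread between these samples, which may be technical.

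Compared per length, as TPM, Pth1r and Kl led the 7 genes in Cre(−) kidneys. Pth1r stood at 254 ± 65.6 TPM (SD, n = 4), Kl at 162 ± 19.6, Vdr at 75.7 ± 4.17 and Cyp24a1 at 35.3 ± 28.1. Fgfr1 followed at 24.4 ± 1.29, Casr at 20.2 ± 2.32 and Cyp27b1 at 9.71 ± 7.17. The ranges of Cyp24a1 and Fgfr1 overlapped, as did those of Casr and Cyp27b1, and no other neighbours in that order did. In KI kidneys the order was flatter: Pth1r had 43.4 TPM, Fgfr1 39.9, Vdr 31.6 and Kl 19.3 on average (n = 3). Cyp27b1 at 8.73 TPM, Casr at 7.88 and Cyp24a1 at 5.60 closed the list there, with overlapping ranges, and the ranges of Pth1r, Fgfr1 and Vdr also ran into each other.

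The first comparison set the 7 genes of KI kidneys against those of Cre(−) kidneys. These groups differ in the KSP-Cre transgene as well as in PRCC-TFE3 expression, and no group had Cre without the fusion. The transgene and the fusion therefore cannot be told apart, in this or any other comparison with Cre(−). Kl, Pth1r, Cyp24a1, Casr and Vdr fell, by 3.26-fold to 11.6-fold, while Cyp27b1 and Fgfr1 passed the test in neither direction. These 5 of 7 calls stood against a background of 29.3% of all 17011 genes tested called lower and 31.6% called higher in the same comparison. The median log2 fold change of the 7 was -1.83, beside 0.03 over all genes tested. In 4 of the 7, Kl, Vdr, Casr and Pth1r, the groups did not overlap, which was so for 56.6% of all genes.

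Kl, the FGF23 co-receptor (ENSMUSG00000058488.7, GRCm38 chr5:150952607-150993817, plus strand), was at 882, 721, 736 and 656 CPM in the 4 Cre(−) kidneys and at 80.8, 57.4 and 55.1 CPM in the 3 KI kidneys. The lowest Cre(−) kidney was many times above the highest KI kidney. Kl fell by 3.54 on the log2 scale (SE 0.35, 11.6-fold; quasi-likelihood test of edgeR, with p adjusted by Benjamini and Hochberg over all genes, adjusted p = 5.12e-07). The transcript Kl-201, which encodes the full-length protein, held most of the gene's TPM in every group. Its promoter window in the RefSeq table is shown here because Kl had the largest fall of the 7, and a link between sequence and fall was not tested. Of 32851 promoters 31.5% hold as many CG pairs or more in the 250 bases before the start. The 250 bases before the start (GRCm38.p6, chr5:150952357-150952606, plus strand) hold 13 CG pairs, in capitals, beside a median of 6 over 32851 promoters:
Kl: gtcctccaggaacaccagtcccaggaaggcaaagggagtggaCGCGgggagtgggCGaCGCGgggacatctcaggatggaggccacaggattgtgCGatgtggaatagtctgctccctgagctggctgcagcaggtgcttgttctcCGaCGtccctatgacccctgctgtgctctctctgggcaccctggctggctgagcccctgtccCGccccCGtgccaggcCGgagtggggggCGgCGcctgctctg

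Fgfr1, the tyrosine kinase receptor that Klotho binds (ENSMUSG00000031565.18, chr8:25513654-25575718, plus strand), was at 74.4, 67.0, 69.5 and 72.8 CPM in Cre(−) and at 68.7, 80.6 and 99.1 CPM in KI kidneys. The groups overlapped through KI replicate 1, and the log2 fold change of 0.22 (SE 0.10) did not pass the test (edgeR, adjusted p = 0.0639). On log2(TPM + 1) the median of all genes was itself 0.38 higher in KI, and Fgfr1 was higher by 0.68, which is 0.30 above that median (limma, adjusted p = 2.68e-05). Without KI replicate 1 Fgfr1 was called higher on the CPM scale too (log2 0.34; edgeR, adjusted p = 0.00527), and without KI replicate 3 it had a log2 fold change of 0.08 (adjusted p = 0.479), while its partner Kl fell on both scales.

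**Figure D1:**
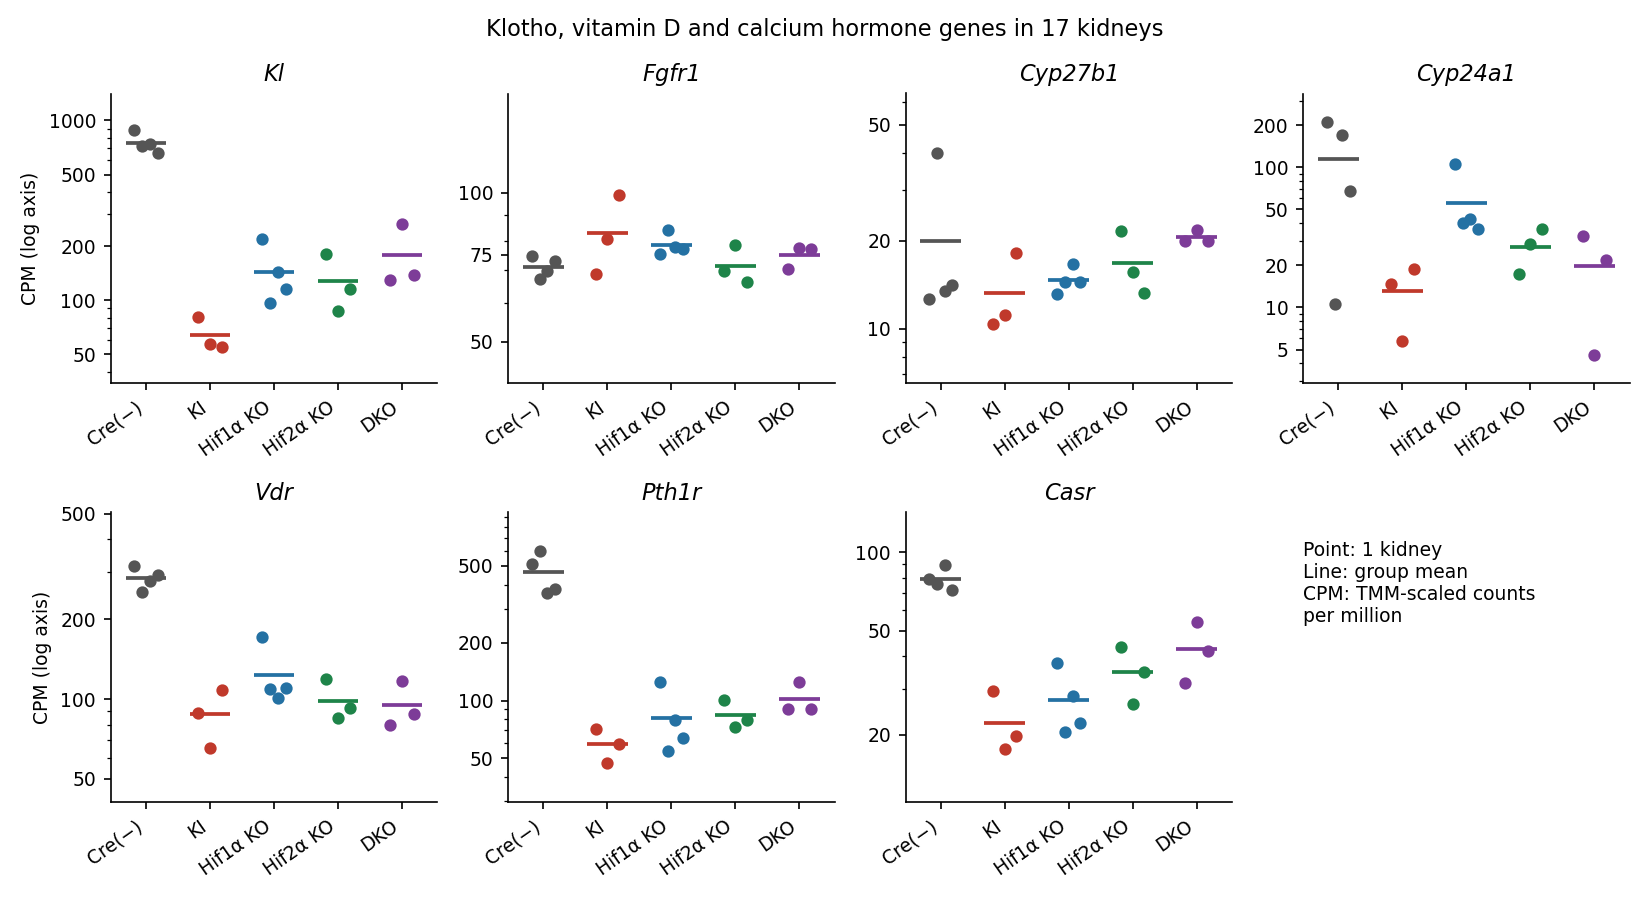
Levels of the 7 genes in CPM (log axis), 1 panel per gene, each point 1 kidney and each line the group mean, for the groups Cre(−), KI, Hif1α KO, Hif2α KO and DKO. Kl, Vdr, Casr and Pth1r of all 13 Cre-positive kidneys lie below the 4 Cre(−) kidneys, while Fgfr1 lies between 66.0 and 99.1 CPM in every kidney. In each Cre-positive group, 56.1% to 59.7% of all genes had no overlap with Cre(−).

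Of the vitamin D enzymes, Cyp24a1, which degrades calcitriol (ENSMUSG00000038567.5, chr2:170482708-170497145, minus strand), had the widest spread. It was at 210.5, 10.7, 169 and 67.2 CPM in Cre(−) and at 14.7, 5.76 and 18.7 CPM in KI kidneys. Cre(−) replicate 2 lay inside the KI range, so the groups overlapped. The fitted log2 fold change was -3.13 (SE 0.85, 8.77-fold; edgeR, adjusted p = 0.00466). Cyp24a1 overlaps Pfdn4 on the opposite strand, and since the sources used here do not state the strand setting of the counting, reads in the shared stretch are uncertain.

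Cyp27b1, which makes calcitriol (ENSMUSG00000006724.12, chr10:127048250-127053006, plus strand), was at 12.6, 40.0, 13.5 and 14.1 CPM in Cre(−) and at 10.4, 11.1 and 18.1 CPM in KI kidneys. Cre(−) replicate 2, the lowest of its group in Cyp24a1, was the highest in Cyp27b1, and the groups overlapped. The log2 fold change of -0.61 (SE 0.34) did not pass the test (edgeR, adjusted p = 0.140), and it turned to 0.03 with limma on log2(TPM + 1). Without 1 library it ranged from -0.90 to -0.02, the latter without Cre(−) replicate 2. Vdr, the calcitriol receptor (ENSMUSG00000022479.15, chr15:97854425-97910630, minus strand), was at 317, 253, 279 and 292 CPM in Cre(−) and at 88.5, 65.5 and 108 CPM in KI kidneys. All 3 KI kidneys lay below all 4 Cre(−) kidneys, and Vdr fell by 1.71 (SE 0.21, 3.26-fold; edgeR, adjusted p = 4.80e-06).

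Pth1r, the receptor for parathyroid hormone (ENSMUSG00000032492.14, chr9:110722085-110747145, minus strand), was at 512, 596, 363 and 381 CPM in Cre(−) and at 70.8, 47.6 and 59.5 CPM in KI kidneys. No KI kidney came near the Cre(−) range, and the gene fell by 2.96 on the log2 scale (SE 0.28, 7.81-fold; edgeR, adjusted p = 3.29e-07). Casr, the calcium-sensing receptor (ENSMUSG00000051980.13, chr16:36493696-36562141, minus strand), was at 78.8, 75.6, 89.4 and 71.8 CPM in Cre(−) and at 29.3, 17.7 and 19.7 CPM in KI kidneys. Here too the groups were apart, with a fall of 1.83 (SE 0.25, 3.55-fold; edgeR, adjusted p = 1.13e-05). Leaving out KI replicate 2, the library with adipocyte transcripts, left 5 of the 7 genes called lower.

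The next question was how loss of Hif1α, Hif2α or both in fusion-expressing kidneys changed the same genes. The 3 comparisons share the KI libraries, so they are not independent of each other. Kl was the gene of the 7 with the clearest difference: it was higher in Hif1α KO and in DKO than in KI kidneys, and Casr was higher in DKO kidneys. The calls were 1 of 7 in Hif1α KO, against 2.57% of all genes called higher and 2.86% called lower, and 2 of 7 in DKO, against 6.53% higher and 6.19% lower. In Hif2α KO kidneys edgeR called 0 of 7, against 0.741% of all genes higher and 0.647% lower. At an unadjusted p under 0.05 edgeR had 2 of the 7 there, Kl and Casr. No all-gene share is given for that threshold, here or below, so such counts cannot be told from the background. DESeq2 called 1, Kl with an adjusted p of 0.0380, among 1015 genes it called in all. Limma on log2(TPM + 1) called 0.

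Kl was at 220.2, 96.2, 143 and 115 CPM in Hif1α KO, at 181, 87.6 and 115 CPM in Hif2α KO and at 129, 266 and 139 CPM in DKO kidneys. Each of these 10 kidneys was above the highest KI kidney, at 80.8 CPM, and below the lowest Cre(−) kidney, at 656 CPM. Against KI, Kl was 2.23-fold higher in Hif1α KO (log2 1.16, SE 0.32; edgeR, adjusted p = 0.0456) and 2.76-fold higher in DKO (log2 1.47, SE 0.34; edgeR, adjusted p = 0.0127). In Hif2α KO the log2 difference was 0.99 (SE 0.33; edgeR, adjusted p = 0.127). Such a gap to the KI kidneys was found in 19.3% of all genes for Hif1α KO, 20.2% for Hif2α KO and 33.7% for DKO. The Hif1α KO call was close to the threshold. It was lost on leaving out Hif1α KO replicate 1 (0.122), 3 (0.0982) or 4 (0.0523), or KI replicate 1 (0.0577), 2 (0.134) or 3 (0.134), the adjusted p without that replicate by edgeR in brackets. Without DKO replicate 2 the DKO call was lost as well (log2 1.06, adjusted p = 0.0735 by edgeR), and without KI replicate 3 (adjusted p = 0.0583).

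Casr was at 37.6, 20.5, 28.1 and 22.2 CPM in Hif1α KO, at 43.5, 26.3 and 34.7 CPM in Hif2α KO and at 31.6, 54.2 and 41.7 CPM in DKO kidneys. In DKO every kidney was above the highest KI kidney, at 29.3 CPM, and Casr was 1.91-fold higher (log2 0.94, SE 0.25; edgeR, adjusted p = 0.0270). That call was lost without DKO replicate 2 or 3 and without KI replicate 2 or 3, with adjusted p by edgeR of 0.132, 0.0705, 0.0917 and 0.102, and with 2 groups only in the fit (adjusted p = 0.0675 by edgeR). The Hif1α KO and Hif2α KO kidneys overlapped with KI, with log2 differences of 0.28 and 0.65 (edgeR, adjusted p = 0.533 and 0.182).

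Pth1r was at 125, 55.0, 78.9 and 64.2 CPM in Hif1α KO, at 100.5, 72.9 and 79.1 CPM in Hif2α KO and at 90.7, 125 and 90.4 CPM in DKO kidneys. All Hif2α KO and DKO kidneys were above the highest KI kidney, at 70.8 CPM. So were the Hif1α KO kidneys at 125 and 78.9 CPM, while those at 55.0 and 64.2 CPM were not. A gap to the KI kidneys was found in 20.2% of all genes for Hif2α KO and 33.7% for DKO. The log2 differences from KI were 0.44, 0.51 and 0.78 (edgeR, adjusted p = 0.334, 0.328 and 0.0715). DESeq2 and limma put the DKO value past the threshold, with adjusted p of 0.0275 and 0.0340.

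Vdr was at 171, 109.5, 101 and 109.9 CPM in Hif1α KO, at 119, 84.8 and 92.2 CPM in Hif2α KO and at 80.0, 116 and 87.7 CPM in DKO kidneys. All 3 groups overlapped with KI, and the largest log2 difference was 0.49, in Hif1α KO (edgeR, adjusted p = 0.172). Cyp24a1 was at 105, 40.0, 42.9 and 36.2 CPM in Hif1α KO, all above the KI kidneys, with a log2 difference of 2.10 that carried an SE of 0.82 (edgeR, adjusted p = 0.144). It was at 17.2, 28.1 and 36.2 CPM in Hif2α KO and at 32.5, 4.58 and 21.7 CPM in DKO kidneys, both within reach of the KI range.

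Cyp27b1 was at 13.2, 14.4, 16.7 and 14.5 CPM in Hif1α KO, at 21.6, 15.7 and 13.3 CPM in Hif2α KO and at 20.0, 21.8 and 20.0 CPM in DKO kidneys. The DKO kidneys were all above the highest KI kidney, at 18.1 CPM, and the log2 difference of 0.64 did not pass the test (edgeR, adjusted p = 0.261). Fgfr1 stayed between 66.0 and 84.1 CPM in the 10 knockout kidneys, with a log2 difference from KI of -0.08 in Hif1α KO (edgeR, adjusted p = 0.708).

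**Figure D2:**
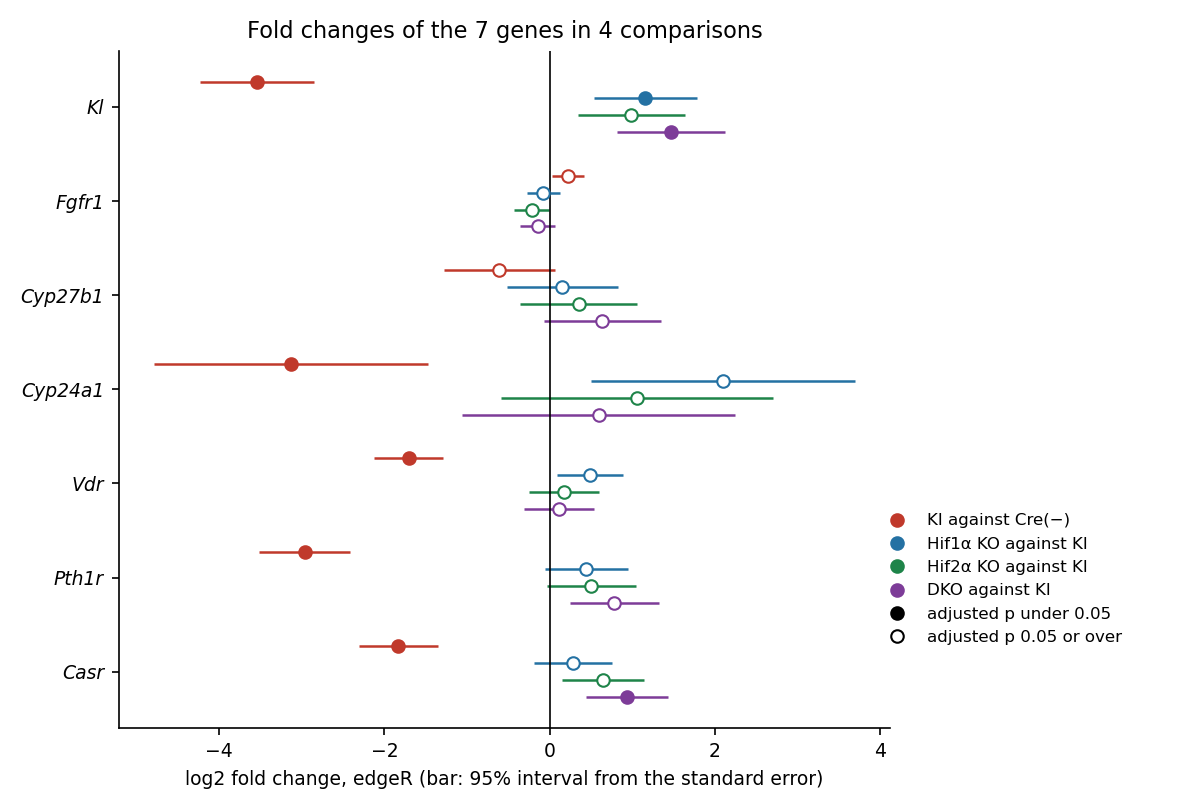
Log2 fold change of the 7 genes in 4 comparisons, KI against Cre(−) and each knockout group against KI; bars are 95% intervals (1.96 standard errors to each side), and a filled point has an edgeR adjusted p under 0.05. The 5 filled points of KI against Cre(−) lie between -3.54 and -1.71, and the 3 filled points of the knockout groups, Kl in Hif1α KO and Kl and Casr in DKO, lie between 0.94 and 1.47.

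Set against the Cre(−) kidneys, the knockout kidneys still had less RNA of most of the 7 genes. Those 3 comparisons share the Cre(−) libraries. The log2 fold change of Kl was -2.38 in Hif1α KO, -2.55 in Hif2α KO and -2.07 in DKO, and that of Pth1r -2.52, -2.46 and -2.18. Vdr had -1.22, -1.53 and -1.59, and Casr had -1.54, -1.18 and -0.89, all called by edgeR. Cyp24a1 was called lower in Hif2α KO (-2.07; edgeR, adjusted p = 0.0323) and in DKO (-2.54; adjusted p = 0.0141), and had -1.03 in Hif1α KO (adjusted p = 0.204). The calls were thus 4 of 7 in Hif1α KO, against 30.1% of all genes lower, and 5 of 7 in both Hif2α KO, against 29.9%, and DKO, against 27.9%. The Cyp24a1 calls rested on single kidneys. The one in Hif2α KO was lost without Cre(−) replicate 1 or 3 or any Hif2α KO kidney, the one in DKO was lost without DKO replicate 2 (adjusted p = 0.0553 by edgeR), and without Cre(−) replicate 2 Cyp24a1 was called lower in Hif1α KO too (-1.42; adjusted p = 0.0413). The 13 Cre-positive kidneys had Kl, Vdr, Casr and Pth1r below every Cre(−) kidney. Of all genes, 56.1% had no overlap with Cre(−) in Hif1α KO, 59.7% in Hif2α KO and 59.3% in DKO. On the TPM scale Casr of the DKO kidneys did not pass the test (log2(TPM + 1) difference -0.39, limma, adjusted p = 0.121, with an all-gene median of 0.45). On that scale limma called Fgfr1 higher in all 3 groups, by 0.57, 0.54 and 0.59, beside all-gene medians of 0.35, 0.43 and 0.45. Without Cre(−) replicate 2, edgeR called Cyp27b1 higher in DKO than in Cre(−) kidneys (log2 0.63, adjusted p = 0.0145).

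Between the knockout groups edgeR called 0 of the 7 genes in each of the 3 pairs, as did DESeq2 and limma. The background was as low: 0.429% of all genes differed in either direction between Hif1α KO and Hif2α KO, 0.406% between DKO and Hif1α KO, and 0.00588% between DKO and Hif2α KO. The smallest unadjusted p, and the only one under 0.05 in the 3 pairs, was 0.0133, for Casr in DKO against Hif1α KO (log2 0.65; edgeR, adjusted p = 0.246). A difference between losing Hif1α and losing Hif2α was therefore not detected for Kl, whose log2 difference between the groups was 0.17.

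Pth1r is transcribed from more than one start, and the transcripts of these starts behaved differently in the kidneys. The start used most in these libraries lies upstream, and another start lies 4535 bases further along the gene. The sequences before both starts are shown because they differ in their number of CG pairs, which are in capitals. Of 32851 promoters 71% hold as many pairs as the upstream one or more, and 14.8% as many as the downstream one. A middle start, with 16 pairs, is not shown, and its transcripts held at most 3.43% of the gene's TPM in any kidney. The 250 bases before the upstream start (GRCm38.p6, chr9:110747146-110747395, minus strand) hold 3 CG pairs, and the 250 bases before the downstream start (chr9:110742611-110742860, minus strand) hold 22:
Pth1r upstream: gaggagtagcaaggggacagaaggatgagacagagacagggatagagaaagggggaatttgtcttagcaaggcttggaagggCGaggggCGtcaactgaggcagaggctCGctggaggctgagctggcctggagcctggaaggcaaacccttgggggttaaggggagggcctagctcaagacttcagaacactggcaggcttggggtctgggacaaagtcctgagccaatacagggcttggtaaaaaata
Pth1r downstream: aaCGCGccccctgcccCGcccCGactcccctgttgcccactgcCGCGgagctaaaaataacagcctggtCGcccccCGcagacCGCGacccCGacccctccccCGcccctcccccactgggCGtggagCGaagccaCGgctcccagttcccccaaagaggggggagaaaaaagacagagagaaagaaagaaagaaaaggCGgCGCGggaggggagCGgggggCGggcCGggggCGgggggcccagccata

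Both are RefSeq promoter windows printed in the direction of transcription, and Myl3 overlaps this part of the gene on the opposite strand. Transcripts from the upstream start, Pth1r-204, Pth1r-205 and Pth1r-206, summed to 256, 339, 208 and 192 TPM in Cre(−) and to 47.6, 31.8 and 37.1 TPM in KI kidneys. The level was 78.0, 35.4, 51.8 and 45.2 TPM in Hif1α KO, 70.5, 51.5 and 54.3 in Hif2α KO, and 68.6, 82.0 and 69.1 in DKO kidneys. All 13 Cre-positive kidneys were below the 4 Cre(−) kidneys, with group means of 15.6%, 21.2%, 23.6% and 29.5% of the Cre(−) mean in KI, Hif1α KO, Hif2α KO and DKO.

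The annotated start of Pth1r-201 lies 109 bases before the downstream RefSeq start, inside the downstream window shown. That window is therefore not wholly upstream of this transcript. Pth1r-201 was at 5.55, 4.03, 4.29 and 5.77 TPM in Cre(−) and at 3.83, 4.71 and 3.53 TPM in KI kidneys. It was at 7.07, 4.37, 4.88 and 2.52 TPM in Hif1α KO, at 3.88, 5.61 and 5.73 in Hif2α KO and at 3.36, 11.4 and 5.14 in DKO kidneys. These TPM ranges overlapped in all groups, at 81.9%, 95.9%, 103% and 135% of the Cre(−) mean in KI, Hif1α KO, Hif2α KO and DKO. The all-gene median of log2(TPM + 1) was itself 0.38, 0.35, 0.43 and 0.45 higher in these groups. Overlap in TPM therefore does not show that the downstream transcript was unchanged. The share of the downstream transcript in the gene's TPM was accordingly 2.06% on average in Cre(−) kidneys (1.17% to 2.92%) and 9.60% in KI kidneys (7.19% to 12.9%). It averaged 8.18%, 8.19% and 7.94% in Hif1α KO, Hif2α KO and DKO, and no Cre-positive kidney was below 4.67%. These transcript levels are estimates that split reads of shared exons, so they are given without a test.

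**Figure D3:**
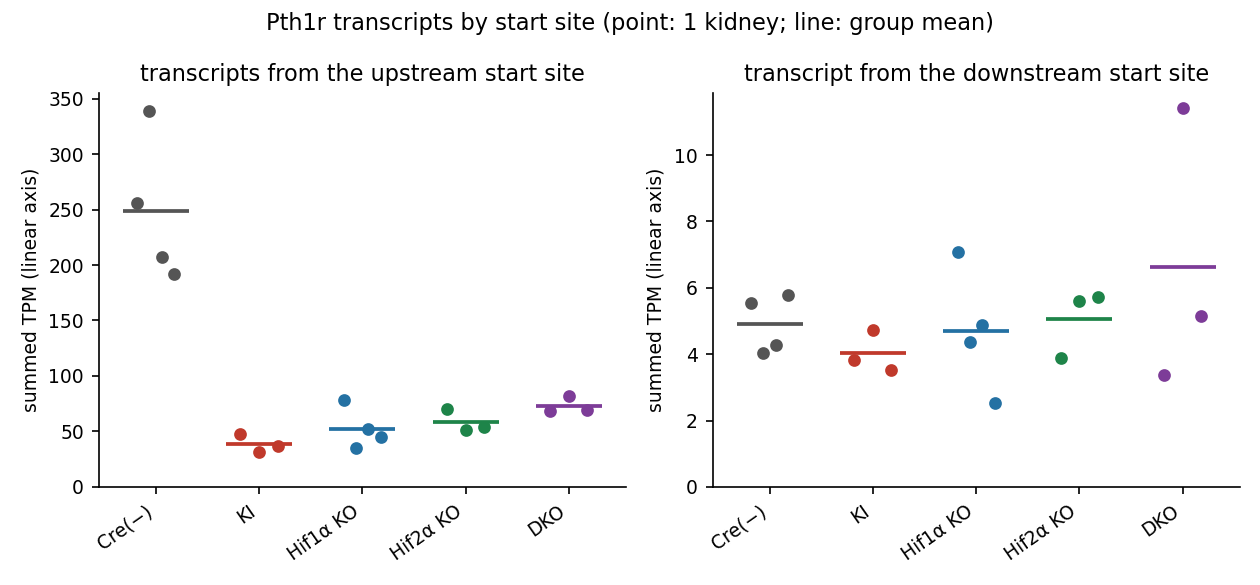
Summed TPM of the Pth1r transcripts from the upstream start and of the transcript from the downstream start, each point 1 kidney and each line the group mean, on linear axes that differ between the panels. Upstream transcripts lie at 192 to 339 TPM in Cre(−) and at 31.8 to 82.0 TPM in the Cre-positive kidneys, while the downstream transcript lies at 2.52 to 11.4 TPM with overlap of all groups. The all-gene median of log2(TPM + 1) was itself 0.35 to 0.45 higher in the Cre-positive groups than in Cre(−).

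The enzymes that make and degrade calcitriol were also compared within each kidney. The ratio of Cyp24a1 to Cyp27b1, in TPM, was 11.2, 0.176, 8.47 and 3.18 in the Cre(−) kidneys, so that replicate 2 had more RNA of the Cyp27b1 gene than of Cyp24a1, and the other 3 the reverse. It was 0.903, 0.347 and 0.667 in KI kidneys, all with less Cyp24a1 than Cyp27b1. The ratio was 5.01, 1.83, 1.73 and 1.66 in Hif1α KO, 0.502, 1.16 and 1.83 in Hif2α KO and 1.06, 0.134 and 0.732 in DKO kidneys. All 4 Hif1α KO kidneys were above 1, as were 3 of 4 Cre(−), 2 of 3 Hif2α KO and 1 of 3 DKO kidneys. The Cyp27b1 level sums its transcripts, and Cyp27b1-203, annotated as subject to nonsense-mediated decay, held on average 48.7% of it in Cre(−) and 41.4% in KI kidneys. Against the coding transcript Cyp27b1-201 alone the ratio was 2.75, 0.752 and 0.759 in KI and 2.14, 0.210 and 3.28 in DKO kidneys, so that KI replicate 1 and DKO replicate 3 changed sides. Across the 17 libraries Pearson's r of log2 CPM between both genes was -0.38, and across the 13 Cre-positive libraries -0.13, values that rest on few kidneys and share each library's depth.

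**Figure D4:**
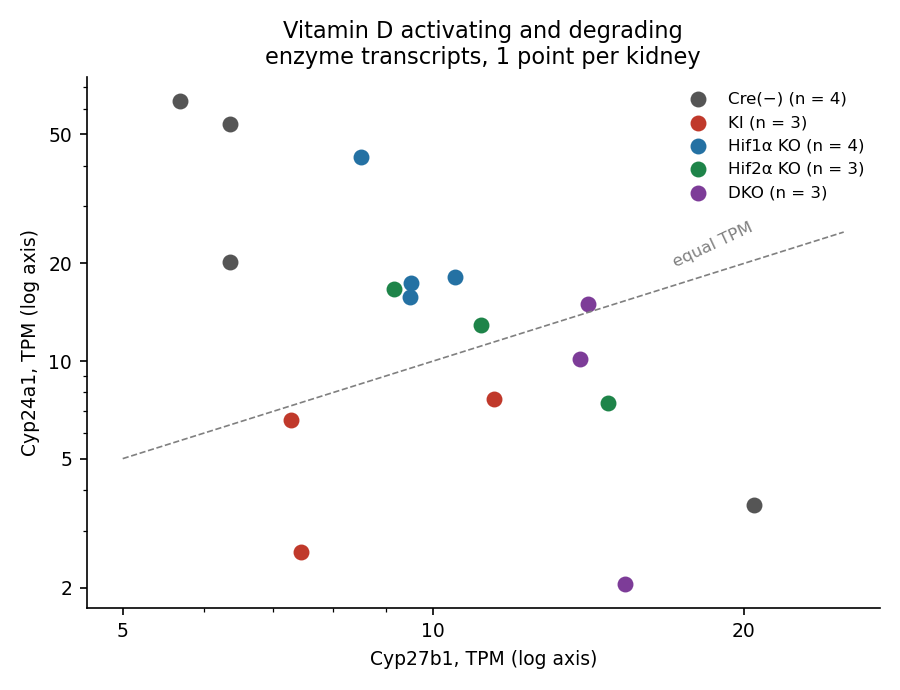
Cyp24a1 against Cyp27b1 in TPM (both axes log), 1 point per kidney, coloured by group, with a dashed line of equal TPM. Cre(−) replicate 2 and DKO replicate 2 lie farthest to the Cyp27b1 side, at ratios of 0.176 and 0.134, and the 3 KI kidneys all lie on that side with all Cyp27b1 transcripts summed.

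The surrounding pathways were described with 5 lists of 76 genes, of which 70 passed the filter on low counts. Of all genes tested, 29.3% were called lower and 31.6% higher in KI against Cre(−). Against KI the shares called higher and lower were 2.57% and 2.86% in Hif1α KO and 0.741% and 0.647% in Hif2α KO. In DKO they were 6.53% and 6.19%. Most genes of vitamin D uptake and activation fell, as Vdr did. Of 14 genes 11 fell and 1 rose in KI against Cre(−), with a median log2 fold change of -1.11. Lrp2, which encodes the megalin receptor that takes up vitamin D with its carrier, went from 4886 ± 532 CPM (SD, n = 4) to 314 ± 16.2 CPM (n = 3), a log2 fold change of -3.96. Its partner Cubn, cubilin, had -2.09, and the hydroxylase gene Cyp2r1 had -1.73 from a low level of 1.49 CPM. Rxrb, which encodes a partner of VDR, was the gene that rose, by 0.15 on the log2 scale (edgeR, adjusted p = 0.0419), and that call was lost in 4 of 7 fits without 1 library and under DESeq2. Against KI, edgeR called 0 of the 14 in Hif1α KO and in Hif2α KO, with 4 and 0 at an unadjusted p under 0.05, and DESeq2 and limma called 0 in both. In DKO kidneys Rxrb alone was called, with -0.22, and lost the call in 4 of 6 fits without 1 library.

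The FGF23 and Klotho list did not move one way. Of its 20 genes 19 were tested, Fgf23 itself being too low, and 6 rose while 5 fell in KI kidneys, with a median of 0.10. These counts were close to the shares of all genes, 31.6% higher and 29.3% lower. The receptor gene Fgfr3 fell from 106 to 35.1 CPM (log2 -1.60), and Galnt3, whose product protects FGF23 from cleavage, fell by 1.19. Spry4, which encodes an inhibitor of receptor tyrosine kinase signalling, fell by 0.86. Adam10, a protease known to shed Klotho from the cell surface, rose from 103 ± 4.88 CPM (n = 4) to 205 ± 10.3 CPM (n = 3), a log2 fold change of 0.99. The transcription factor genes Egr1 and Etv5 rose by 3.22 and 1.34. Both are known to be induced by FGF receptor signalling, as are Spry4 and Dusp6, and Dusp6 fell by 0.58 (edgeR, adjusted p = 0.00167).

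Etv5 was the list gene called in all 3 knockout groups. It stood at 69.6 ± 14.0 CPM in KI and at 27.5 ± 2.61 CPM in Cre(−) kidneys. It was at 26.2 ± 6.78 CPM in Hif1α KO, 31.3 ± 0.958 in Hif2α KO and 25.2 ± 8.06 in DKO kidneys, close to the Cre(−) mean. The log2 differences from KI were -1.41, -1.15 and -1.46 (edgeR, adjusted p = 0.00275, 0.0215 and 0.00173). The Hif2α KO call of Etv5 was lost in 5 of 6 fits without 1 library, all but that without KI replicate 1, and with 2 groups only in the fit (edgeR, adjusted p = 0.106). Egr1 had -0.89 in Hif1α KO and -0.93 in DKO kidneys (edgeR, adjusted p = 0.0326 and 0.0230). Its KI level was 76.6, 59.7 and 148 CPM, and without KI replicate 3, the highest, the differences were -0.42 and -0.45 and not called (edgeR, adjusted p = 0.136 and 0.105). Without 1 library these Egr1 calls were lost in 4 of 7 and 3 of 6 fits. Galnt3 rose in the same groups, by 0.56 and 0.38, and Fgfr4 fell, with -0.51 and -0.71. Fam20c, which encodes the kinase of secreted proteins, had -0.46 and -0.38, and Fgfr3 had 0.32 in DKO. These calls were close to the threshold: without 1 library that of Fgfr4 in Hif1α KO was lost in 4 of 7 fits, those of Fam20c in 4 of 7 and 4 of 6, down to -0.20 in DKO without KI replicate 3, and that of Fgfr3 in 5 of 6. Etv5 was the 1 gene of all 70 that edgeR called in Hif2α KO against KI. There 20 had an unadjusted p under 0.05, a count that cannot be told from the background without an all-gene share. DESeq2 called 7 there, where it called 1015 of all genes.

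Few genes of parathyroid hormone and calcium sensing were called. Of 12 genes 8 were tested, Pth, Pth2, Pth2r and Gprc6a being too low, and in KI kidneys Stc2 alone was called. Stc2, a stanniocalcin, rose from 7.76 ± 0.824 CPM (n = 4) to 64.9 ± 5.56 CPM (n = 3), a log2 fold change of 3.07, and was lower than KI in Hif1α KO by -0.78 (edgeR, adjusted p = 0.0197). On log2(TPM + 1), where the all-gene median is shifted by 0.38, limma called 6 of the 8 higher in KI. In that fit limma called 11301 of 17011 genes, both directions counted. Gnas, Gnaq and Gna11, the G protein genes through which PTH1R and CASR act, had log2 fold changes of 0.01, -0.12 and -0.12 in KI, none of them called. Over the 8 genes the median log2 fold change was 0.15.

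Genes of phosphate transport moved in both directions. In KI kidneys 6 of 9 genes fell and 3 rose, beside 29.3% lower and 31.6% higher of all genes, with a median of -0.88. Slc34a1, the main phosphate carrier of the proximal tubule and a target of FGF23 and parathyroid hormone, went from 3463 ± 242 CPM (n = 4) to 110.0 ± 30.7 CPM (n = 3), a log2 fold change of -4.98. The related Slc34a3 went from 55.1 to 1.26 CPM (-5.45), and the scaffold gene Pdzk1 from 1382 to 416 CPM (-1.73). Slc20a1 rose by 1.97, Slc34a2 by 1.86 and Slc20a2 by 0.42. Against KI, Slc34a1 was higher in Hif1α KO (log2 1.54; edgeR, adjusted p = 0.0459) and in DKO (1.58; adjusted p = 0.0312), as was Slc34a3 (1.72 and 1.59; adjusted p = 0.0441 and 0.0463), and Slc20a1 was lower in DKO (-0.58; adjusted p = 0.0288). Without 1 library the calls of both Slc34 genes were lost in 6 of 7 fits in Hif1α KO and in 5 of 6 in DKO, all but those without Hif1α KO replicate 2 and without DKO replicate 1. The Slc20a1 call was lost in 3 of 6 such fits. In Hif2α KO edgeR, DESeq2 and limma called 0 of the 9, and 4 had an unadjusted p under 0.05 by edgeR.

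Calcium and magnesium transport fell most widely. Of 20 tested genes 17 fell and 1, the channel gene Trpv6, rose in KI kidneys, with a median log2 fold change of -1.89. Of all genes 29.3% were called lower and 31.6% higher. Egf, whose product drives magnesium uptake in the distal convoluted tubule, went from 2069.9 ± 221 CPM (n = 4) to 19.0 ± 6.32 CPM (n = 3), a log2 fold change of -6.77. Slc12a1, the salt carrier of the thick ascending limb, had -3.60, and the claudin gene Cldn10 had -3.24. Trpv6 rose by 1.21, to 5.77 ± 2.25 CPM in KI kidneys.

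Against KI, 5 of the 20 were higher in Hif1α KO and 6 were higher and 1 lower in DKO, with medians of 0.69 and 0.63. Of all genes 2.57% were called higher in Hif1α KO, and 6.53% higher and 6.19% lower in DKO. Slc12a1 was higher by 1.65 and 1.68, Egf by 2.71 and 2.61, Cldn10 by 1.08 and 1.28 and the sodium-calcium exchanger Slc8a1 by 0.92 and 1.12, all called in both groups. Trpm6, the magnesium channel, was called in Hif1α KO with 1.09. The claudins Cldn16 and Cldn19, with 0.94 and 1.40, and Cldn2, lower with -0.51, were called in DKO. In Hif2α KO edgeR called 0 of the 20, with 11 at an unadjusted p under 0.05. DESeq2 called 5, where it called 1015 of all genes, and limma called 1. Without 1 library the count of higher genes ranged from 0, without KI replicate 2, to 6 in Hif1α KO, and from 3, without KI replicate 3 or DKO replicate 2 or 3, to 8 in DKO. The Egf calls were lost in 6 of 7 and 5 of 6 of those fits. Of the list's 21 genes 9 were also among the segment markers below.

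Markers of the nephron segments that hold these genes mostly fell in KI kidneys. So did Kl, Pth1r, Cyp24a1, Casr and Vdr, while Cyp27b1 and Fgfr1 were not called. All 10 proximal tubule markers, 6 of 6 thick ascending limb markers, 5 of 5 distal convoluted tubule markers and 4 of 5 tested connecting tubule markers were called lower in KI against Cre(−). Of all genes tested 29.3% were called lower. Of the proximal tubule markers 9 of 10 were above 1 TPM in all libraries, as were all markers of the thick ascending limb and the distal convoluted tubule, so the labelled tissue was there in every sample. Their summed TPM in KI kidneys was 10.3% of the Cre(−) mean for the proximal tubule, 28.4% for the thick ascending limb, 13.4% for the distal convoluted tubule and 15.1% for the connecting tubule. Proximal tubule sums were 5144 to 6655 TPM in Cre(−) and 530.2 to 658 TPM in KI kidneys.

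On the same scale Kl was at 11.9%, Pth1r at 17.1%, Cyp24a1 at 15.9%, Casr at 38.9% and Vdr at 41.7% of the Cre(−) mean in KI kidneys. Cyp27b1 was at 89.8% and Fgfr1 at 163%. The all-gene median of log2(TPM + 1) was itself 0.38 higher in KI, and on CPM Fgfr1 was at 117%. Kl thus lay between the proximal tubule sum of 10.3% and the distal convoluted tubule sum of 13.4%. The part of these segments in the fall of the 5 genes was not tested.

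Against KI, edgeR called 5 of 10 proximal tubule markers higher in Hif1α KO and in DKO, and 4 and 5 of 6 thick ascending limb markers. It called 1 of 5 distal convoluted tubule markers higher in each of these groups, and in Hif2α KO 1 marker of all 4 segments, Umod of the thick ascending limb. The shares of all genes called higher were 2.57% in Hif1α KO, 0.741% in Hif2α KO and 6.53% in DKO. The distal convoluted tubule sum was 23.9%, 22.8% and 30.9% of the Cre(−) mean in Hif1α KO, Hif2α KO and DKO, beside 25.7%, 24.3% and 34.6% for Kl. The thick ascending limb sum was 73.4%, 64.3% and 94.7%, beside 45.9%, 62.5% and 76.5% for Casr, and the proximal tubule sum was 19.9%, 17.6% and 22.6%, beside 22.8%, 25.2% and 31.5% for Pth1r. Most of the thick ascending limb sum was Umod, at 1527 TPM in Cre(−) kidneys. Against Cre(−), edgeR called the other 5 markers of that segment lower in all 3 knockout groups, for example Slc12a1 with log2 fold changes of -1.95, -2.36 and -1.93. Of all genes 30.1%, 29.9% and 27.9% were called lower there. Within each knockout group the kidney with the most Kl, Hif1α KO 1, Hif2α KO 1 and DKO 2, also had the highest distal convoluted tubule sum, at 489.6, 445 and 589 TPM. The same kidneys had the highest proximal tubule, thick ascending limb, connecting tubule and intercalated cell sums of their groups too. The part of these segments in the higher Kl and Casr was not tested.

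Markers of injury and of cells outside the tubule were mostly higher in KI than in Cre(−) kidneys. Of all genes 31.6% were called higher in KI. The calls of these markers were 6 of 6 for tubular injury, 5 of 6 for macrophages, 4 of 6 for fibroblasts and pericytes, 4 of 7 for lymphocytes and 4 of 6 for adipocytes. Their summed levels were at 390% of the Cre(−) mean for tubular injury, at 350% for fibroblasts and pericytes and at 2105% for macrophages. The lymphocyte sum was low and at 571%, with 15.1, 71.4 and 6.96 TPM in the KI kidneys, most of it from replicate 2. The principal cell sum was at 95.7%, the endothelial sum at 98.9%, the podocyte sum at 49.7% and the intercalated cell sum at 42.8%. The adipocyte sum was at 2901%, most of it from KI replicate 2. Their part in the levels of the 7 genes was not tested.

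**Figure D5:**
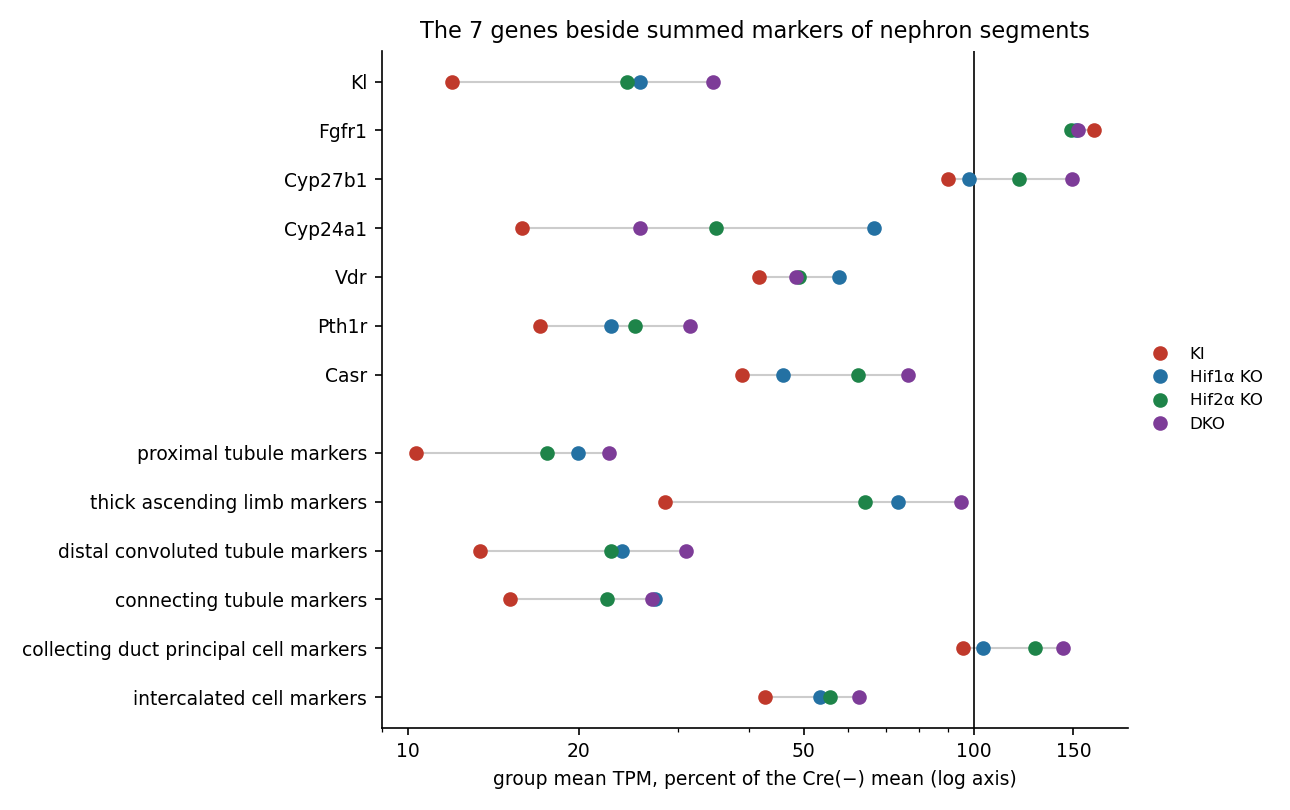
Group mean TPM in the KI, Hif1α KO, Hif2α KO and DKO groups as a percentage of the Cre(−) mean (log axis), for the 7 genes and for the summed markers of 6 nephron segments or cell types. Kl and Pth1r and the proximal, distal convoluted and connecting tubule sums all lie between 10.3% and 34.6%, while Fgfr1 lies above 100% in all 4 groups. The all-gene median of log2(TPM + 1) was itself 0.35 to 0.45 higher in these groups. On CPM Fgfr1 was at 117%, 111%, 100.5% and 105.5%, called in none.

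Genes whose log2 CPM followed a member most closely, among 14711 genes, are given as a description. Libraries of a group share their genotype, and all values of a library share its depth. Across the 17 libraries Kl ran with Slc22a2, Eci3 and Slc12a3 (Pearson's r 0.993, 0.992 and 0.992). Pth1r ran with Pecr (0.992), Vdr with Gnptg (0.984) and Casr with Slc4a1 (0.980), the anion exchanger of intercalated cells. Fgfr1 ran with Mllt6 (0.915), Cyp24a1 with Sorbs3 (0.813) and Cyp27b1 with Wdyhv1 (0.768), so the last pair had no companion as close as those of Kl.

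Within the 13 Cre-positive libraries, where the difference from Cre(−) plays no part, Kl ran most closely with Kcnj10 (0.973), then Slc22a2 (0.973) and Susd2 (0.970). Casr ran with Atp6v1c2 (0.973), Pth1r with Vwa1 (0.973), Vdr with Gpx1 (0.939), Fgfr1 with Mllt6 (0.940), Cyp27b1 with Procr (0.914) and Cyp24a1 with Acot9 (0.902). Among the 7 genes themselves Kl and Pth1r had an r of 0.97 over the 17 libraries, Kl and Casr 0.95 and Kl and Vdr 0.93, and over the 13 Cre-positive libraries 0.91, 0.86 and 0.61.

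Promoter windows of 300 bases, 250 before and 50 after a start, were found in RefSeq for 5 of the 7 genes, 7 windows in all with 3 of them for Pth1r. They were searched on both strands for CACGTG and CATGTG, forms of the E-box, for ACGTG and GCGTG, both forms of the core of the hypoxia response element, of which ACGTG is contained in CACGTG, and for AGGTCA, a nuclear receptor site. GCGTG was found in 2 of the 7 windows, once in that of Vdr and once in that of the downstream Pth1r start, and the other letters in 0 of 7. Of all 32851 promoters 7.2% held CACGTG, 14.2% CATGTG, 19.6% ACGTG, 32.4% GCGTG and 16.3% AGGTCA. The search covers only these windows and letters.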

How the data were processed

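RNA of 17 mouse kidneys was sequenced on an Illumina NextSeq instrument after TruSeq Stranded library preparation. The submitters' processing notes name Trim Galore 0.6.6, cutadapt 2.5 and STAR 2.7.9a, and the study's methods name RSEM, the human assembly hg38 and, for annotation, hg38 or the mouse build GRCm38. The files list mouse transcripts. The authors deposited RSEM expected counts per transcript, not normalized between libraries, and TPM per transcript, normalized for length and library total by the authors.

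Of 119353 transcripts 116770 (97.84%, holding at least 99.04% of counts) were matched to GENCODE M21 on GRCm38 and summed to 35971 genes, with counts rounded. Library totals had a median of 18635282, and depths and floors cover counting error only. No libraries were identical. The main test was edgeR 4.0.16 (R 4.3.3): TMM factors, filterByExpr with a minimum count of 10, a quasi-likelihood fit over the 17 libraries with 1 coefficient for each group, and Benjamini-Hochberg adjustment over 17011 genes, with a threshold of 0.05. CPM use TMM-scaled totals; log2 CPM for correlations had a prior count of 2. Alternatives used DESeq2 1.42.0, limma 3.58.1 on log2(TPM + 1) and log2(TPM + 0.1), other scaling, no filter, 2 groups per fit, a replicate block, subsets of Cre(−) mice, and each library left out. The fits were tested on simulated data. Python 3.11.15 with matplotlib 3.10.9 drew the figures, and pandas 2.3.3 wrote the tables.

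The 7 genes and all lists were chosen with earlier results of these data known. Named were the 7 genes, up to 3 genes per direction and pathway list with the largest called change in KI against Cre(−) at a mean TPM of at least 1, every list gene called in a knockout group against KI, Hif1a and Epas1, and the genes most correlated with each of the 7. Gnas, Gnaq, Gna11, Umod, Dusp6 and the letters GCGTG were chosen after their values were seen. No batch was stated. Promoter sequences are from the RefSeq table for GRCm38.p6.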

Additional observations from a re-analysis of the deposited data

Results flagged for a closer look

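In the 2 groups of 4 kidneys, Cre(−) and Hif1α KO, the 7 genes with Hif1a and Epas1 gave 18 sets of 4 values. In 3 of them the highest kidney stood apart, by a gap to the next kidney that passed the 95% limit of Dixon's test. Chance flags about 1 in 20 such sets. Cyp27b1 was at 40.0 CPM in Cre(−) replicate 2, against 12.6 to 14.1 CPM in the other 3 Cre(−) kidneys. Cyp24a1 was at 105 CPM in Hif1α KO replicate 1, against 36.2 to 42.9 CPM in the other 3 kidneys of that group. Vdr was at 171 CPM in the same Hif1α KO kidney, against 101 to 109.9 CPM in the others. That kidney also had the highest proximal tubule marker sum of its group, at 1759.8 TPM, and its part in these values was not tested.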

How the results depend on the processing

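Of 1022 values of the 7 genes under the alternatives, 935 kept their direction and side of the threshold, 31 lost a call, 20 gained one and 36 changed sign. The 5 calls of KI against Cre(−) held under every alternative run. The Hif1α KO call for Kl against KI was lost (0 of 7 called) with 2 groups in the fit, the replicate block and limma at both pseudocounts, and without 1 library the count was 0 to 1. For Hif2α KO against KI, DESeq2 called 1. For DKO against KI the count without 1 library was 0 to 2. Limma lost Cyp24a1 in Hif2α KO and DKO and Casr in DKO against Cre(−), and with only the Cre(−) mice that carry Hif1a flox Cyp27b1 was called lower in KI (-0.99). The cause was not tested. The called values of the named pathway genes kept their sign under all alternatives, and 14 of 336 lost the call in KI against Cre(−), 66 of 182 in Hif1α KO, 7 of 13 in Hif2α KO and 65 of 221 in DKO against KI.

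Samples with the same replicate number differ in genotype and share only a number. Over 31 pairs of the same number r of the deviations was -0.223 to 0.249, with 4 over 0.1, and 3 of 17 libraries correlated best with their own number. With the replicate block the Hif1α KO count fell to 0, Cyp24a1 in Hif2α KO against Cre(−) had an adjusted p of 0.0516 by edgeR, and the log2 fold change of Pth1r in Hif1α KO against Hif2α KO turned to 0.0084.

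The sign changes (log2) were in values that were not called. Cyp27b1 against Cre(−) had 0.025 and 0.042 in KI, 0.16 and 0.19 in Hif1α KO and 0.41 and 0.46 in Hif2α KO with limma at pseudocounts 1 and 0.1. With Cre(−) mice lacking Hif1a flox it had 0.091 in Hif1α KO and 0.30 in Hif2α KO, and with those carrying it -0.35 in DKO. Without 1 library it ranged from -0.62 to 0.13, from -0.47 to 0.34 and from -0.14 to 0.63 in Hif1α KO, Hif2α KO and DKO against Cre(−), and from -0.34 to 0.021 in Hif1α KO against Hif2α KO. Fgfr1 in Hif2α KO against Cre(−) had -0.0012 with DESeq2, -0.0015 with its size factors and -0.064 to 0.061 without 1 library. Fgfr1 in DKO against Hif1α KO had 0.019 and 0.020 with limma. Against KI, Fgfr1 without 1 library was -0.19 to 0.074 in Hif1α KO and -0.26 to 0.0035 in DKO, and Vdr in DKO -0.060 to 0.30. Between knockout groups the ranges were -0.13 to 0.50 (Kl) and -0.36 to 0.086 (Pth1r) for Hif1α KO against Hif2α KO, -0.10 to 0.60 (Kl) for DKO against Hif1α KO, and -0.23 to 0.099 (Vdr) for DKO against Hif2α KO.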
